A study of Mus musculus with 10 samples.

Results

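The 4 genes described here, Cebpa, Cebpb, Cebpd and Cebpe, encode members of the C/EBP family of transcription factors. IKZF2 (Helios) binding was measured around them by CUT&RUN, in which an antibody directs a nuclease to the chromatin that a protein occupies and the released fragments are sequenced. Every deposited region that lay in a gene or within 100 kb of it was taken, which gave 99 of the 151133 regions, 18 at Cebpa, 32 at Cebpb, 17 at Cebpd and 32 at Cebpe. The genes lie on separate chromosomes of mm10, Cebpa at chr7:35119293-35121928, Cebpb at chr2:167688915-167690432, Cebpd at chr16:15887286-15889545 and Cebpe at chr14:54710363-54712174. Regions in a gene or within 5 kb of it are called gene-end regions here, and the rest are called distal. There were 6 gene-end and 93 distal regions, and together they covered 15211 bp.

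The cells were RN2, a mouse leukaemia line from the C57BL/6 strain that carries the MLL-AF9 fusion together with oncogenic NRASG12D. They had been transduced with a retrovirus for murine IKZF2 and the marker RFP, sorted and kept in culture, so every sample overexpressed IKZF2 and none was made from cells without the added gene. The signal came from 3 CUT&RUN libraries made with an anti-IKZF2 antibody, each present as 2 technical replicates, 6 samples in all. The labels also describe 4 samples with a control antibody, which were not analysed here, so no value below is set against a control antibody. RN2 is a single line, and no label states that the 3 libraries are separate cultures; the spread between them may be technical. The files hold no expression values, so neither the myeloid identity of the cells nor the expression of the 4 genes could be checked.

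C/EBP proteins are basic leucine zipper factors that bind DNA as homodimers or as heterodimers with each other. C/EBPalpha is required for commitment to the granulocyte and monocyte lineages and is often mutated in acute myeloid leukaemia. C/EBPbeta drives emergency granulopoiesis and macrophage genes, C/EBPdelta is induced in inflammation and the acute-phase response, and C/EBPepsilon is needed for the last steps of granulocyte maturation. Cebpa is controlled in myeloid progenitors by an enhancer about 37 kb downstream of its start, and Cebpe by an enhancer a few kb downstream of its start. IKZF2 is a zinc finger protein of the Ikaros family, whose members bind DNA with a GGGAA core.

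A few stretches of promoter sequence bear on the results below. The upstream sequences of Cebpa and Cebpb are shown because the first lay wholly inside a region and the second had no region within several kb. The stretches before the starts of 2 long non-coding RNA genes, Gm35889 and Gm31619, are shown because they lay inside the region with the most reads at Cebpa and the one with the most reads at Cebpb. All were read 5′ to 3′ on the strand of the gene from RefSeq sequences of GRCm38.p6, the assembly that mm10 displays. They are Cebpa chr7:35119043-35119292 on the plus strand, Cebpb chr2:167688665-167688914 on the plus strand, Gm35889 chr7:35156837-35156980 on the minus strand and Gm31619 chr2:167589484-167589669 on the minus strand. Capitals mark GGGAA or its reverse complement TTCCC, with overlapping matches allowed.
Cebpa: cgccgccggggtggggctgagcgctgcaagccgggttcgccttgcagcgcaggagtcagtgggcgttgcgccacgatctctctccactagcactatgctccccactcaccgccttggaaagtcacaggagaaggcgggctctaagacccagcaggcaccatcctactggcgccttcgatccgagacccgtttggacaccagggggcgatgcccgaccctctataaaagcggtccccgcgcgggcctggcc
Cebpb: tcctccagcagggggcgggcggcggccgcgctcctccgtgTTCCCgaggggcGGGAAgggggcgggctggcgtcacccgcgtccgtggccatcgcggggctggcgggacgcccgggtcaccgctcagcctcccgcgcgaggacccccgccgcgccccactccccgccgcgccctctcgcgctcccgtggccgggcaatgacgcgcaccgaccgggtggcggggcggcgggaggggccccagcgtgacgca
Gm35889: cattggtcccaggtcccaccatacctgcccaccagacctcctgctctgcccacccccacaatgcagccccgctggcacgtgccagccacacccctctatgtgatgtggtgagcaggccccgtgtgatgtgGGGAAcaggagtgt
Gm31619: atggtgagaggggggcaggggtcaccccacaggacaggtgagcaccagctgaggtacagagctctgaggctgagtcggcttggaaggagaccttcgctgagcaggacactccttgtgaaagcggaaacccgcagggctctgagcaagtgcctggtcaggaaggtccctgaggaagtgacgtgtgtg
The Cebpa window of 250 bases held 0 matches to GGGAA on either strand. The region that covered it was 327 bp wide, and its other bases were not searched. The Cebpb window held 2 matches, 1 on each strand, and no region covered it. The Gm35889 stretch held 1 match and the Gm31619 stretch 0. They were 144 and 186 bases of regions of 643 and 333 bp, and the rest of those regions was not searched. Among the 32851 RefSeq promoter windows, 56.2% held at least 1 match in 250 bases, 37.6% in 144 bases and 46.1% in 186 bases. The core of a C/EBP site, searched as TTGCNNAA on both strands, was in none of the 4 stretches, beside 9.56% of all windows of 250 bases. The Cebpa and Cebpb windows were 66.4% and 81.6% G or C, above the median of 52.4% over all windows. Promoter windows were matched for 2 of the 4 genes.

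Each library held 1675237, 1570251 and 2081455 reads in regions, and the technical replicates were unequal, with 273896 to 326440 reads in the first and 1296355 to 1755015 in the second. Technical replicates were summed per library, and signal is given as CPM per kb, which divides a region's reads by all reads of that library in regions and by its own width. At this depth a single read in a 100 bp region was worth 5.97, 6.37 and 4.8 CPM per kb in the 3 libraries. In technical replicate 1, 31 to 38 of the 99 regions had no read, and in technical replicate 2, 0 to 2 had none. The values of the narrow regions therefore rest on few reads.

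Cebpa had a region over its own start. This region, chr7:35119020-35119347, was 327 bp wide and ran from just upstream of the gene into its first bases. It had 30, 37 and 27 reads in libraries 1 to 3, of which 24, 35 and 25 came from technical replicate 2. Its signal was 54.8, 72.1 and 39.7 CPM per kb, a mean of 55.5 ± 16.2 (SD, n = 3), at percentile 73.4 of all regions. Among regions of 200 bp or more this mean was at percentile 79.3. By CPM, not divided by width, the region was at percentile 98.6 of all regions. It was the only region within 5 kb of Cebpa.

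The region nearest to the known distal enhancer of Cebpa had the most reads of that locus. It lay at chr7:35156337-35156980, and its near edge was 37044 bp downstream of the Cebpa start. At 643 bp it was the widest of the 99 regions, and 21 of all 151133 regions were at least as wide, itself included. It had 56, 36 and 48 reads in the 3 libraries, 140 in all, and 575 of all regions had at least that many, itself included. Technical replicate 1 gave 13, 1 and 15 of these reads and technical replicate 2 gave 43, 35 and 33, so in library 2 nearly all came from technical replicate 2.

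How that region ranks depends on whether its reads are divided by its width. Its CPM, not divided by width, was 26.5 ± 6.02 (SD, n = 3), at percentile 99.6 of all regions. Per kb its signal was 52.0, 35.7 and 35.9, a mean of 41.2 ± 9.37 CPM per kb, which was only percentile 13.5. Among the 13386 regions of 200 bp or more, its mean per kb was at percentile 37.6. The coefficient of variation between libraries was 22.8%, below the median of 54.7% of the narrower regions at the 4 loci. It lay between genes, 29115 bp from the nearest end of a protein-coding gene, Slc7a10, which encodes an amino acid transporter, and its far end overlapped the promoter window of Gm35889. Whether the region coincides with the enhancer itself was not tested, since the files hold no enhancer coordinates.

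**Figure D1:**
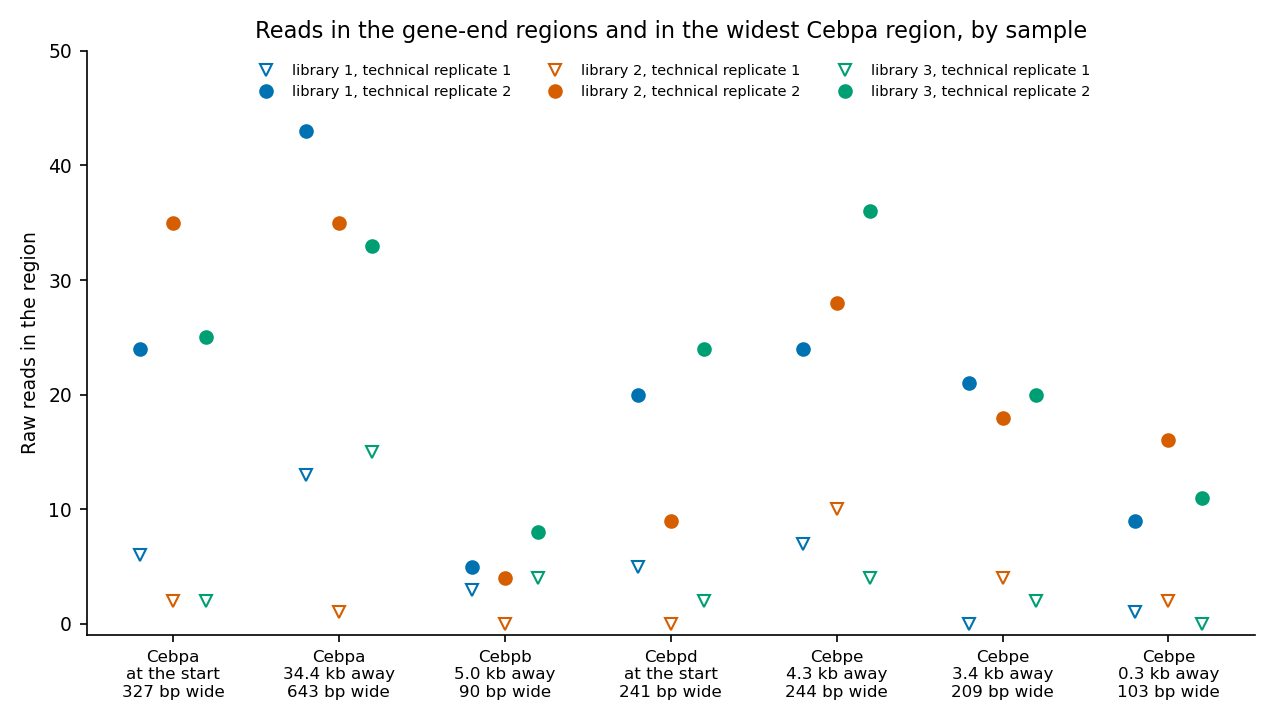
Raw reads in each of the 6 samples (y axis) for the 6 gene-end regions and the widest Cebpa region (x axis, with distance to the gene and width). Colours are libraries, open triangles technical replicate 1 and filled circles technical replicate 2. The widest Cebpa region reaches 43 reads in a sample, while the Cebpb region stays between 0 and 8.

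Cebpe had 3 regions within 5 kb, and the strongest of them was the strongest gene-end region of the family. Cebpe is read toward lower coordinates, so the low side of the gene is downstream. The region at chr14:54705852-54706096, 244 bp wide, lay 4267 bp past the downstream end and 6078 bp from the start. It had 31, 38 and 40 reads, the most of any region at the locus, with technical replicate 1 giving 7, 10 and 4 of them. The signal was 75.8, 99.2 and 78.8 CPM per kb, a mean of 84.6 ± 12.7 (SD, n = 3), at percentile 97.6 of all regions. All 3 libraries were above the 64.0 CPM per kb that bounds the top 10% of mean signals, but of the single libraries only library 2 had the region in its own top 10%.

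The other Cebpe gene-end regions were lower or more variable. One at chr14:54706753-54706962, 209 bp wide and 3401 bp downstream of the gene, had 21, 22 and 22 reads and 60.0, 67.0 and 50.6 CPM per kb, a mean of 59.2 ± 8.26 (SD, n = 3). The other at chr14:54712448-54712551, 103 bp wide, lay 274 bp upstream of the start. It had 10, 18 and 11 reads and 58.0, 111 and 51.3 CPM per kb, a mean of 73.5 ± 32.9 (SD, n = 3), with library 2 well above the others. The downstream pair thus had the smaller spread and the region nearest to the start the largest. Whether the downstream pair lies in the known Cebpe enhancer was not tested.

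Cebpd, like Cebpa, had a region over its low-coordinate end. It lay at chr16:15887072-15887313, 241 bp wide, and had 25, 9 and 26 reads. Its signal was 61.9, 23.8 and 51.8 CPM per kb, a mean of 45.8 ± 19.8 (SD, n = 3), at percentile 32.7. Among regions of 200 bp or more this mean was at percentile 59.6. By CPM, not divided by width, the region was at percentile 94.1 of all regions. Library 2 was the low one, and its technical replicate 1 had no read there.

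Cebpb had no region at its start. The closest one, chr2:167683875-167683965, was 90 bp wide and 4950 bp upstream of the gene, just inside the 5 kb bound, and the next lay 7386 bp away. It had 8, 4 and 12 reads and 53.1, 28.3 and 64.1 CPM per kb, a mean of 48.5 ± 18.3 (SD, n = 3), at percentile 45.2. By CPM, not divided by width, it was at percentile 10.2 of all regions. Library 2 was again the low one, and the 4 reads behind its value make it imprecise.

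The 4 genes were ordered by their highest gene-end region. Cebpe came first at 84.6 CPM per kb, then Cebpa at 55.5, Cebpb at 48.5 and Cebpd at 45.8. Among the 16130 protein-coding genes with a region within 5 kb of either gene end these values stood at percentiles 81.9, 40.7, 18.9 and 12.2. None of the 4 genes was in the top 10% of genes, which began at 102 CPM per kb and held 10% of genes by construction.

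By its highest region per kb Cebpe was above the other 3 genes in all 3 libraries. In reads it was close to Cebpa in libraries 1 and 2. The Cebpe region, 244 bp wide, had 31, 38 and 40 reads and the Cebpa region, 327 bp wide, 30, 37 and 27. Per kb Cebpe exceeded Cebpa by 29.1 ± 9.17 CPM per kb (SD, n = 3), Cebpb by 36.1 ± 30.4 and Cebpd by 38.7 ± 32.4. For each of these pairs the two-sided exact sign-flip permutation test gave p = 0.25, adjusted p = 0.5 over 6 pairs. With 3 libraries 0.25 is the smallest p this test can give, so no pair could pass 0.05. The neighbours lower in the order did not differ beyond their spread: Cebpa minus Cebpb was 7.02 ± 34.4, Cebpa minus Cebpd 9.65 ± 33.5 and Cebpb minus Cebpd 2.63 ± 10.7 CPM per kb. In library 2 Cebpa was at 72.1 while Cebpb and Cebpd were at 28.3 and 23.8, and in library 3 Cebpa was the lowest of the 4. Cebpe had 3 regions to take the highest from and each other gene 1. With its 3 regions joined, Cebpe was at 66.6, 89.3 and 63.1 CPM per kb, a mean of 73.0 ± 14.3, and in library 3 it was then below Cebpb at 64.1. The region nearest to its start, at 51.3 in library 3, was also below Cebpd at 51.8 there.

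Over the 4 loci, gene-end regions were only slightly above distal ones. Of the 6 gene-end regions 3 were at Cebpe, where they averaged 72.4 CPM per kb. The single ones at Cebpa, Cebpb and Cebpd were at 55.5, 48.5 and 45.8. Gene-end regions averaged 60.6, 66.9 and 56.0 CPM per kb in the 3 libraries and distal regions 52.2, 59.0 and 53.9. The difference was positive in 3 of 3 libraries, with a mean of 6.17 ± 3.46 CPM per kb (SD, n = 3; two-sided exact sign-flip permutation test, p = 0.25, the smallest p that 3 libraries allow). It was about that of 1 read in a region of 100 bp. With technical replicate 1 only it was 0.43 CPM per kb and positive in 1 of 3 libraries, with gene ends bounded at 1 kb it was 2.98 and positive in 2 of 3, and with each region counted only for its nearest gene it was 11.1 and positive in 3 of 3.

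The difference was not shared by all 4 genes. At Cebpe the gene end was above the distal regions in 3 of 3 libraries, by 14.9 ± 15.9 CPM per kb. At Cebpa it was above in 2 of 3 libraries, by 6.38 ± 18.4. At Cebpb and Cebpd the mean differences were -9.56 ± 24.7 and -5.12 ± 22.9 CPM per kb, although 2 of 3 libraries were positive at each, because library 2 was far lower at the gene end. The exact sign-flip permutation p was 0.25 for Cebpe, 0.75 for Cebpa and 1 for Cebpb and for Cebpd. By mean signal, only 2 of 17 distal regions exceeded the highest gene-end region at Cebpa and 3 of 29 at Cebpe, while 19 of 31 did so at Cebpb and 11 of 16 at Cebpd. That highest region was taken from 3 at Cebpe and was the only 1 at each other gene.

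**Figure D2:**
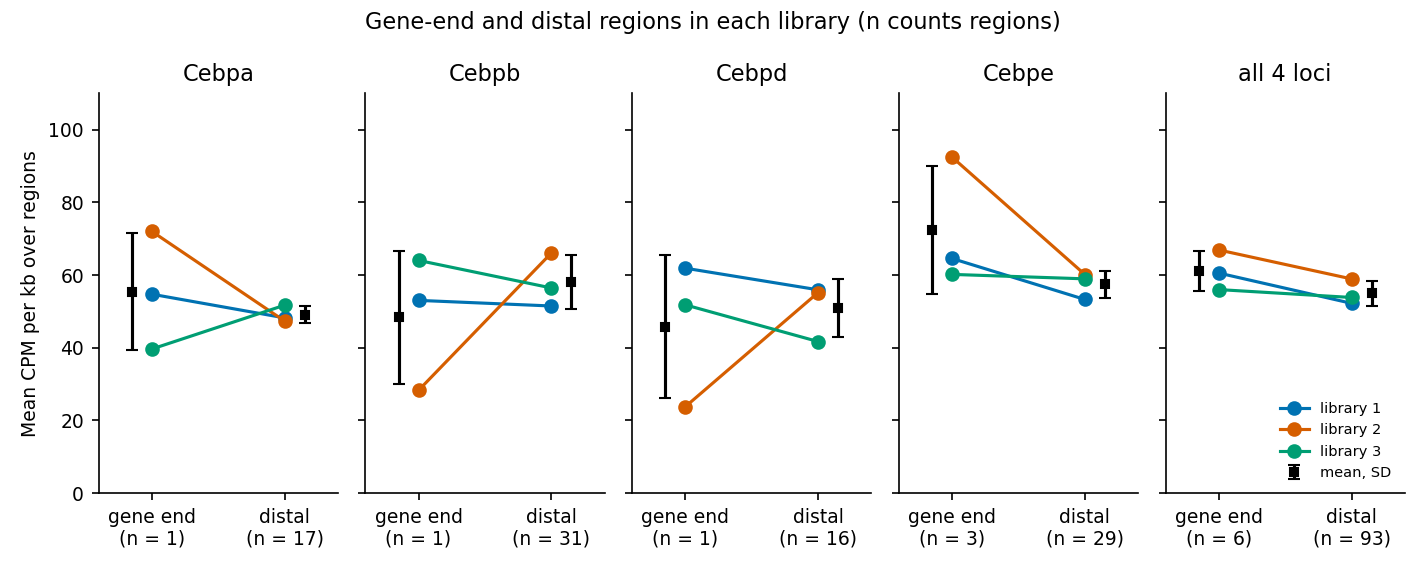
Mean CPM per kb over gene-end and distal regions (y axis) at each locus and over all 4, with 1 line per library and black squares for the mean with SD over the 3 libraries. The lines fall from gene end to distal in every library at Cebpe and over all 4 loci, and library 2 rises at Cebpb and Cebpd.

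Few regions of the 4 loci were strong in every library. Of the 99 regions, 2 were in the top 10% of regions in all 3 libraries, 2.02%, beside 0.645% of all regions. A further 4 were in the top 10% in exactly 2 libraries, 22 in 1 and 71 in none, and over all regions 1.63% were so in 2 libraries, 24.9% in 1 and 72.8% in none. By mean signal 16 of the 99 (16.2%) were in the top 10%, beside 10% of all regions by construction. Cebpe had 8 of these, Cebpb 7, Cebpa 1 and Cebpd 0. They made up 2 of the 6 gene-end regions (33.3%), both at Cebpe, and 14 of the 93 distal regions (15.1%).

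The stronger regions of the Cebpb locus were all distal. One of the 2 regions in the top 10% in every library lay at chr2:167589336-167589669, 99246 bp upstream of Cebpb and so close to the edge of the window. It was 333 bp wide and had 54, 57 and 78 reads, 189 in all. The signal was 96.8, 109 and 112.5 CPM per kb, a mean of 106 ± 8.26 (SD, n = 3), at percentile 99. It overlapped the promoter window of Gm31619, and its 3 libraries lay close together. Over all regions, 174 had at least as many reads, itself included.

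A second steady region at Cebpb lay on the other side of the gene. At chr2:167753994-167754473, 63562 bp downstream and between genes, it was 479 bp wide and had 183 reads. Its signal was 64.8, 79.8 and 71.2 CPM per kb, a mean of 71.9 ± 7.51 (SD, n = 3). Among regions of 200 bp or more its mean was at percentile 90.6. The 2 other leading regions were less steady, at 111 ± 63.5 CPM per kb for chr2:167634464-167634608, near Ube2v1, which encodes a ubiquitin-conjugating enzyme variant, and 108 ± 36.9 for chr2:167649404-167649519, inside Tmem189.

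At Cebpe the other region in the top 10% in every library lay at the start of a neighbour. It was chr14:54686118-54686208, 90 bp wide, 24155 bp downstream of Cebpe at the start of 1700123O20Rik. With 56 reads in all it reached 132.7, 92.0 and 122.8 CPM per kb, a mean of 116 ± 21.2 (SD, n = 3), the highest mean of the 99 regions. The next region, chr14:54686850-54687026, overlapped a promoter window of Acin1, which encodes the splicing-associated protein acinus. It had 25, 30 and 29 reads and 90.8 ± 15.6 CPM per kb. Another, chr14:54651198-54651312 inside Acin1, was at 93.7 ± 36.5. These leading distal regions at Cebpe lay at the ends of other genes or inside them, as did most distal regions of that locus.

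At Cebpa the highest signal per kb was at a related gene. The region chr7:35056615-35056707, 92 bp wide, lay 49 bp from an end of Cebpg and overlapped its promoter window. Cebpg encodes a C/EBP family member that lacks an activation domain and pairs with the others. The signal was 64.9, 132 and 83.6 CPM per kb, a mean of 93.3 ± 34.4 (SD, n = 3), from 45 reads. It was the single region of the Cebpa locus in the top 10% by mean. The next ones were less steady, with 61.7 ± 64.3 CPM per kb for chr7:35057058-35057171 beside it and 53.1 ± 46.3 for a region in Pepd, which encodes a dipeptidase. In both, the SD was close to the mean.

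Cebpd had no region in the top 10% by mean. Its highest, chr16:15863182-15863474, lay at an end of Mzt2, which encodes a protein of the mitotic spindle, with 40, 29 and 27 reads and 63.1 ± 18.7 CPM per kb (SD, n = 3), just under the bound of 64.0. The next, both inside the DNA repair gene Spidr, were at 62.5 ± 52.6 and 57.3 ± 51.8. A region of 408 bp in the same gene, wide among the 99, was at 37.7 ± 27.4, with 47 of its 81 reads in library 1. The median coefficient of variation between libraries was 58.3% at Cebpd, beside 48.3% at Cebpa, 43.9% at Cebpb and 47.3% at Cebpe.

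**Figure D3:**
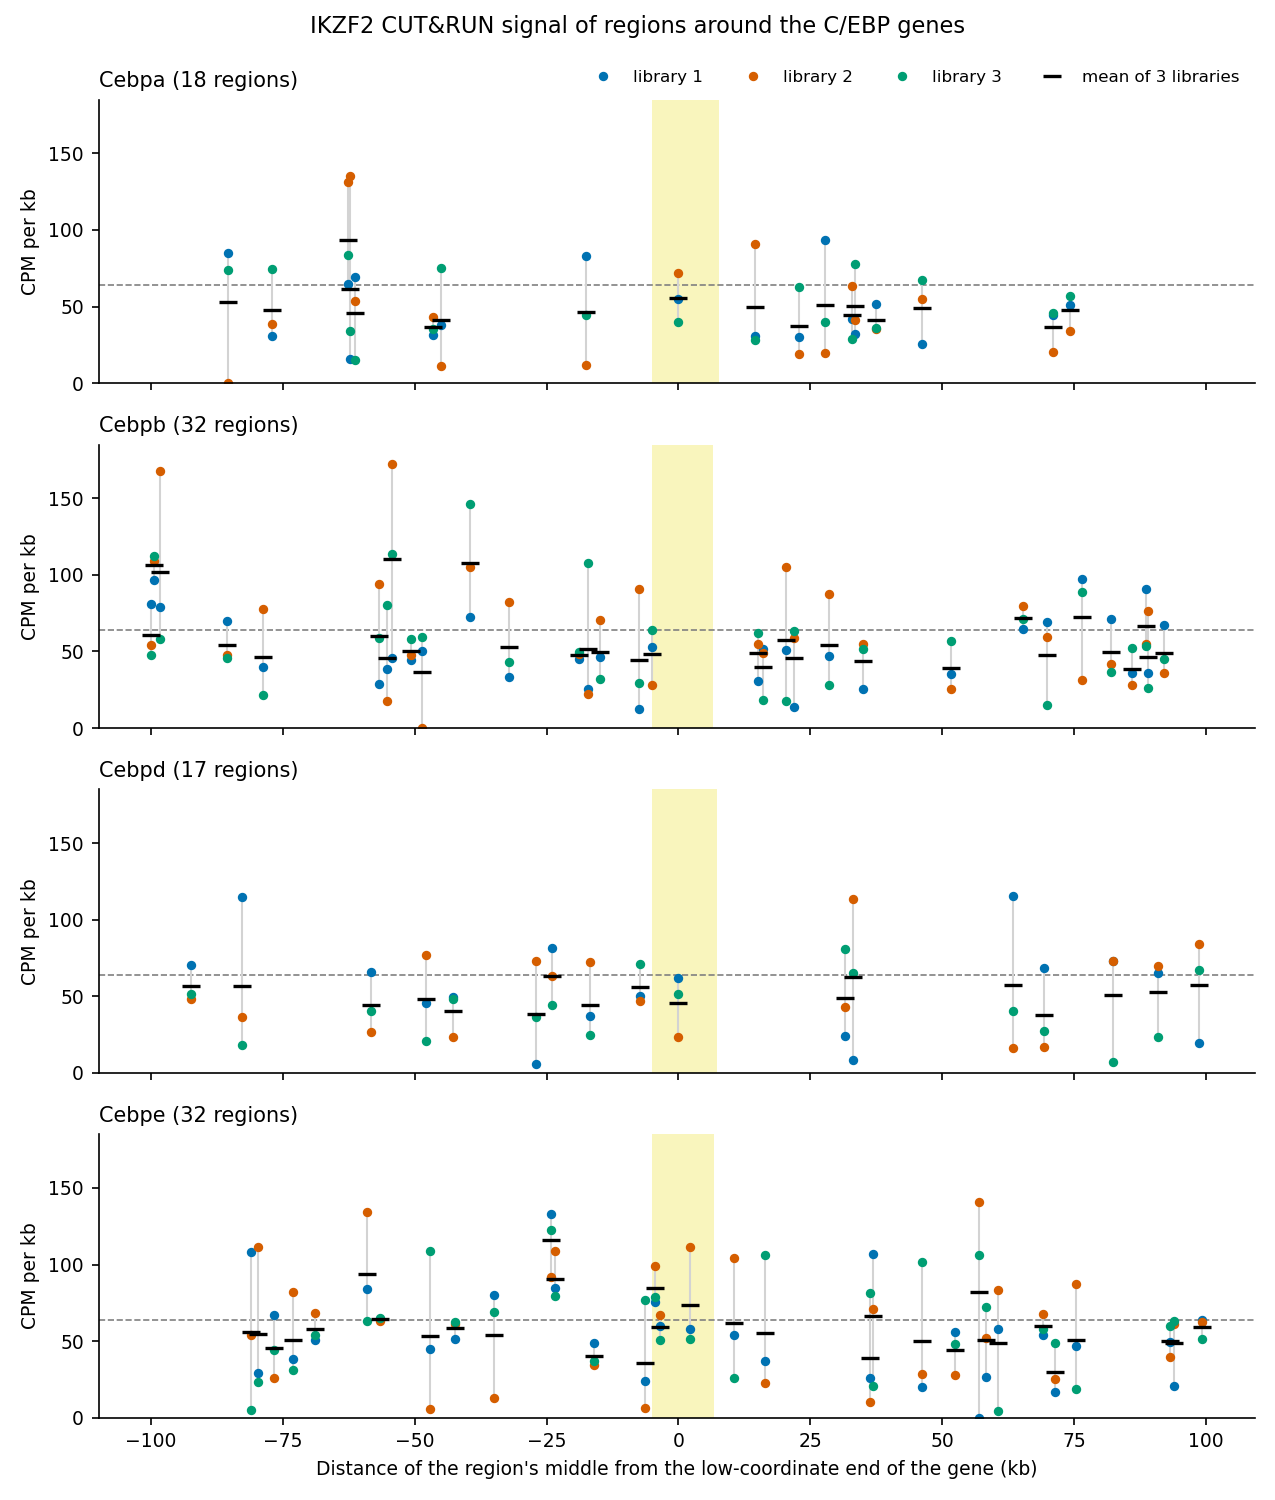
CPM per kb of every region (y axis) by distance of its middle from the low-coordinate end of the gene (x axis, kb), for the 4 genes. Points are the 3 libraries, black ticks their mean, yellow the gene and 5 kb on either side, and the dashed line the bound of 64.0 CPM per kb for the top 10% of means. Cebpb and Cebpe have 32 regions each and Cebpa and Cebpd 18 and 17, and no mean at Cebpd passes the dashed line.

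Ranked by reads without division by width, other regions led. By CPM, 7 of the 99 were in the top 10% in all 3 libraries, beside 2.32% of all regions. They were the Cebpa start and the region 37 kb downstream of it, both steady Cebpb regions, the Mzt2 region near Cebpd, the region of 176 bp at Acin1 and the Cebpe region 6078 bp downstream of its start. The Cebpb region near Gm31619 was in the top 10% in all 3 libraries on both scales. The region at the 1700123O20Rik start was so only per kb, as it was 90 bp wide.

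Wide regions had more reads and a smaller relative spread than narrow ones. Of the 99, 21 were 200 bp or wider (21.2%), beside 8.86% of all regions, and 4 of the 6 gene-end regions were among them. The wide regions had a median of 68 reads and a median coefficient of variation between libraries of 31.5%, the narrower ones 30 reads and 54.7%. Over all regions the same medians were 35.5% and 51.3%. The part of the read number in this spread was not tested.

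**Figure D4:**
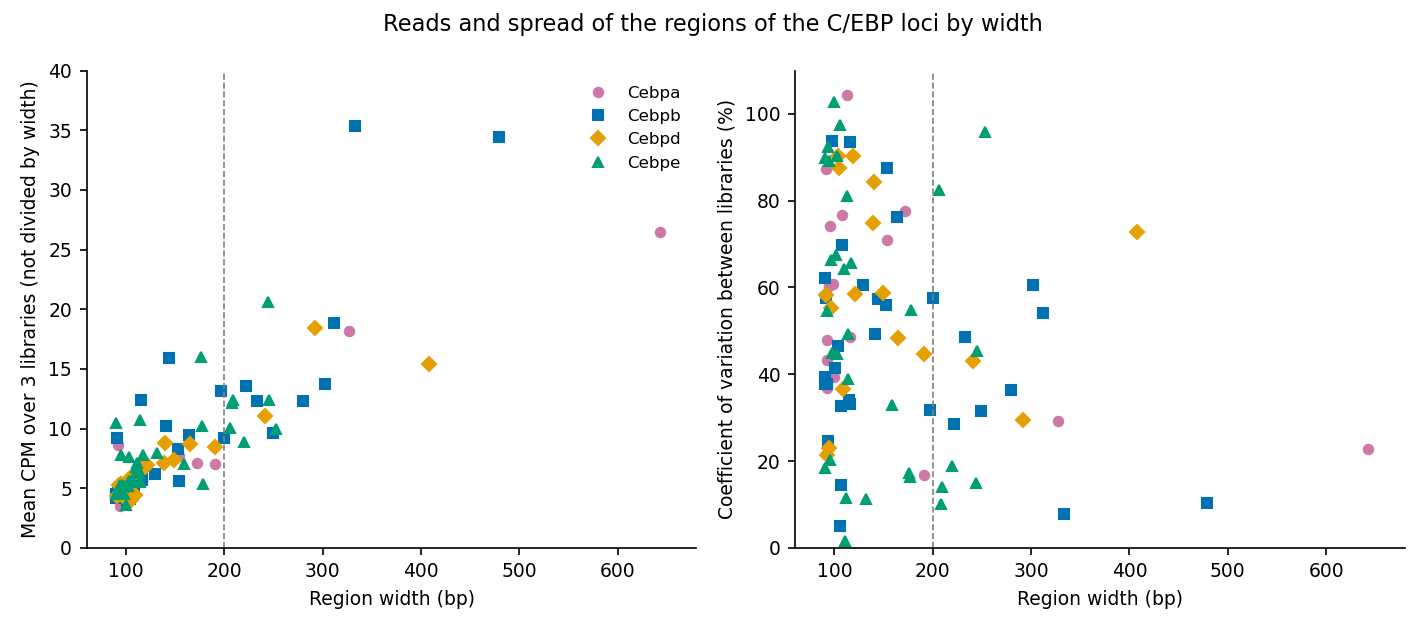
Mean CPM over the 3 libraries, not divided by width (left, y axis), and coefficient of variation between libraries in percent (right, y axis) against region width in bp (x axes), 1 point per region and 1 symbol per locus. The dashed line marks 200 bp. The Cebpa region of 643 bp, with 26.5 CPM, stands at the far right, and the points with a coefficient of variation above 100% are all narrow.

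Some of the 99 regions lay at promoters of other genes. In all, 11 of 99 (11.1%) overlapped a RefSeq promoter window, beside 3.36% of all regions, and among wide regions 5 of 21 (23.8%) beside 11.8%. These shares are not matched, since the 99 were taken for lying within 100 kb of a gene and the others lie anywhere. Of the 2 genes of the family with a window, that of Cebpa was overlapped and that of Cebpb was not. The others belonged to the protein-coding genes Cebpg, Ube2v1, Cdh24, Acin1 and 1700123O20Rik and to long non-coding RNA genes. Of the 11, 5 touched the window of a long non-coding RNA, and 4 of these touched no protein-coding one. Regions in the end of another gene averaged 66.3 ± 17.1 CPM per kb (SD over 3 libraries, 11 regions), regions inside another gene 54.2 ± 1.91 (40 regions) and regions between genes 52.8 ± 2.86 (42 regions).

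The number of regions also differed between the 4 loci. A protein-coding gene had a median of 20 regions in or within 100 kb of it, and genes shorter than 5 kb a median of 14, with quartiles of 6 and 21. Cebpb and Cebpe, with 32 each, stood at percentile 91.7 of all genes, and Cebpa and Cebpd, with 18 and 17, at 44.7 and 40.8. All 4 genes are shorter than 5 kb. Among genes of that length Cebpb and Cebpe stood at percentile 98.0, Cebpa at 66.0 and Cebpd at 62.7.

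None of the 33 tested regions at the 4 loci was called between technical replicates by the test over all regions. In edgeR's quasi-likelihood test with library as a block, 71 of 27452 regions passed an adjusted p of 0.05 (0.259%), and of the 33 tested regions of the C/EBP loci 0 did, with 4 at an unadjusted p under 0.05 (beside 6.86% of all tested) and 2 in DESeq2 (beside 5.06%), which also called 0. DESeq2 gave an adjusted p to only 1905 of the 27452 regions between technical replicates. With TMM scaling the Cebpa start region was higher in technical replicate 2, by a log2 fold change of 1.47 ± 0.73 (SE), adjusted p = 0.694 by edgeR. The direction of the calls over all regions depended on the scaling. With TMM 38 were higher and 33 lower in technical replicate 2, and with total reads 9 and 46. Between the 3 libraries 4 of 27452 regions passed (0.0146%), and 0 of the 33 did, with 5 at an unadjusted p under 0.05 in edgeR (beside 4.35% of all tested) and 6 in DESeq2 (beside 5.69%), which also called 0 of the 33. That comparison sets libraries against technical replicates only. The other regions did not pass the filter, which looks at the reads of single samples, and entered neither test. Among them were the region at the 1700123O20Rik start, with 56 reads in all, and the one at Cebpg, with 45. A region of the Cebpa locus with 25 reads in all did pass.

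The genes most like each member in their 3 library values were found by the distance of log2 (CPM per kb + 1) over the 3 libraries. They were Mis18a and Ski for Cebpa, Lrtm2 and Cdk5r2 for Cebpb, Olfr52 and Fam155a for Cebpd, and Pdzd7 for Cebpe. With 3 libraries such likeness was common, since 908, 495, 375 and 816 genes lay within a distance of 0.5 of Cebpa, Cebpb, Cebpd and Cebpe.

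A list of 30 genes of the C/EBP pathway was read the same way, by the highest region within 5 kb of either gene end. It held the family members and partners Cebpg, Cebpz and Ddit3, the Tribbles and Cop1 genes, some of whose proteins mark C/EBPalpha for degradation, factors that act with or against C/EBP proteins such as Spi1, Runx1 and Gfi1, and granulocyte and monocyte targets. Of the 28 with a region, 3 were in the top 10% of genes, beside 10% of all genes. They were Cebpz, a CCAAT-binding protein outside the leucine zipper family, at 150 ± 60.5 CPM per kb (SD, n = 3), Trib3, a Tribbles pseudokinase, at 136 ± 42.7, and Id1, a helix-loop-helix inhibitor, at 112 ± 38.6. The median of the list was 62.4 CPM per kb, beside 58.8 over all genes with a region, and 17 of the 28 were above the latter.

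Other genes of the list were spread over the range. Spi1, which encodes PU.1, a factor that acts with C/EBP proteins in myeloid cells, was at 92.3, 92.6 and 74.2 CPM per kb, a mean of 86.4 ± 10.5 (SD, n = 3). The granule protease genes Elane and Prtn3 shared 1 region at 83.0 ± 33.5. Csf3r, the receptor for granulocyte colony-stimulating factor, was at 59.1 ± 20.6, near the median of all genes. Cd14, a monocyte receptor gene, was the lowest of the list at 33.2 ± 18.7.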

How the data were processed

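The deposited files hold raw counts of reads per region, 1 file for each of the 6 anti-IKZF2 samples, over 1 list of 151133 regions that is the same in all files. Per the submitters' processing notes the authors used Bowtie2 2.3.3.1, MACS2 and the build mm10; which samples the regions were called on is not given in the sources used here. Coordinates are printed as deposited, and whether starts count from 0 is not stated. Technical replicates were summed, and counts were divided by the library's total in regions and by region width (Python 3.11.15, pandas 2.3.3, scipy 1.17.1). Gene spans came from RefSeq on GRCm38.p6, protein-coding genes only. A gene's value is its highest region within 5 kb of either end of its span, so regions deeper inside a longer gene were not counted. Across regions, edgeR 4.0.16 (filterByExpr, TMM, quasi-likelihood, Benjamini-Hochberg) was the main test and DESeq2 1.42.0 an alternative, in R 4.3.3; the scripts were tested on simulated data. The library number pairs the technical replicates by the labels, and their deviations correlated at 0.155, 0.179 and 0.213. The named regions are every gene-end region, the 3 highest distal regions per locus, those in the top 10% in all libraries and the one nearest to 37 kb downstream of the Cebpa start; regions leading in width, reads or unscaled CPM were added after their values were seen, as were the list genes Spi1, Elane, Prtn3 and Csf3r. List genes are the 3 highest and the lowest, and the 2 most similar genes are given per member, except 1 for Cebpe that is not reported here. The members and lists were chosen with earlier results of these data known. In the deposited counts, 84.7% to 87.4% of technical replicate 1 and 58.0% to 61.2% of technical replicate 2 values were even.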

Additional observations from a re-analysis of the deposited data

How the results depend on the processing

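Depth limited the values, since a median region of the 4 loci had 35 reads over the 3 libraries, and the results also depended on the scaling by width and on the technical replicate. The difference between gene-end and distal regions over all 4 loci stayed above 0 in each alternative run and ranged from 0.43 CPM per kb with technical replicate 1 only to 11.1 with nearest genes only. None of these runs left out Cebpe, which held 3 of the 6 gene-end regions of the main run. The 2 of 99 regions in the top 10% in every library became 7 of 99 by CPM without width, 0 of 99 with technical replicate 1 only, 1 of 49 within 50 kb, 1 of 21 among regions of 200 bp or more, 0 of 29 where each region counted only for its nearest gene and 0 of 99 at the top 5%. Over all 151133 regions the 975 of the main run became 3499 by CPM without width, 309 with technical replicate 1 only and 548 at the top 5%. Of the 13386 regions of 200 bp or more, 379 passed in every library. With a library left out, only the remaining libraries had to be passed. The members were then 5, 3 and 2 of 99 without library 1, 2 and 3, beside 1923, 1551 and 1916 of all regions. The 16 of 99 in the top 10% by mean became 28 of 99 (28.3%) by CPM without width and 7 of 99 (7.07%) with technical replicate 1 only. Among the smaller sets they became 6 of 49 (12.2%) within 50 kb, 3 of 21 (14.3%) at 200 bp or more and 5 of 29 (17.2%) for nearest genes, beside 16.2% reported. The 3 of 28 pathway genes in the top 10% became 1 of 28 with technical replicate 1 only. With regions of 200 bp or more they became 1 of 14, beside 454 of all 4525 genes with such a region. The 71 regions called between technical replicates became 46 with no filter, 50 with no replicate block on the same 27452 regions, 46 with no replicate block and the filter of that design (9743 regions tested, an alternative chosen after seeing the data), and 18, 0 and 8 without library 1, 2 or 3. The 71 split into 38 higher and 33 lower, against 9 and 46 with total reads for scaling and 14 and 42 in DESeq2. The 4 regions called between libraries became 0 without the technical replicate term and 4, 0 and 0 without library 1, 2 or 3. With technical replicate 1 only, the highest gene-end value moved to 34.1 CPM per kb at Cebpa, 82.5 at Cebpb and 98.5 at Cebpe. The causes were not tested.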
